A study of Drosophila melanogaster with 4 samples.

Results

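The peaks described here are the 2883 regions of an H3K4me1 peak list that lie on U or Uextra, the collections of Drosophila melanogaster sequence that FlyBase release 5 does not place on a chromosome arm. They were chosen by the sequence name alone and make up 25.8% of the 11173 peaks of the list. Uextra held 2522 of them and U held 361. They were set beside the 8019 peaks on the 6 arms 2L, 2R, 3L, 3R, 4 and X. The 271 peaks on the Het scaffolds, pieces of heterochromatin assigned to a chromosome, served for a few further comparisons.

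The list came from chromatin immunoprecipitation followed by sequencing (ChIP-seq) in S2-DRSC cells, an established male line derived from late-stage embryos. Per the labels, 2 libraries were made from formaldehyde-fixed chromatin precipitated with a rabbit polyclonal antibody to H3K4me1, and 2 from input DNA of the same line. One line grown in culture is the model throughout, so the peaks describe this line and no fly tissue. The list carries 1 score per peak and no value per library. No spread between replicates could therefore be set beside any difference below, and read depth was not analysed here. The differences are given as descriptions of this list, without p-values.

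H3K4me1 is monomethylation of lysine 4 of histone H3. In flies the methyltransferase Trr, a member of the COMPASS-like complexes, places most of it at enhancers, and the demethylase Lsd1 can remove it. Sequence that resists placement on an arm is largely heterochromatic and repetitive, with transposable elements, satellite arrays and ribosomal DNA among its known contents, and U and Uextra gather such scaffolds end to end. Position within a collection is therefore an order of scaffolds and not a place in the genome. A repeat present in many copies can also draw reads from copies elsewhere. How reads that match several places were treated is not given in the sources used here, and the part of this in the scores was not tested.

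Peaks on Uextra were narrow. Their median width was 503 bases (exact 95% interval of the median 489 to 517), with quartiles of 360 and 682 bases, and 95% of them were no wider than 913 bases. Of 2522 Uextra peaks, 82, or 3.25% (exact 95% interval 2.59 to 4.02), reached 1000 bases, against 24.9% of all peaks in the list and 2549 of 8019 arm peaks, or 31.8% (30.8 to 32.8). None of the Uextra peaks reached 2000 bases, a width passed by 11% of the list. The intervals cover counting error alone and treat peaks as independent, which copies of a repeat would not be. No map of scaffold ends was at hand, so whether peaks on Uextra or U stop at such ends was not tested. This limit holds for the widths and for the ranks at matched width below.

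Peaks on U were wider than those on Uextra in the upper part of the range. Their median was 560 bases (521 to 599), with quartiles of 369 and 845 bases, against 596 bases (579 to 612) and quartiles of 335 and 1246 bases on the arms. On U, 74 of 361 peaks, or 20.5% (16.5 to 25.04), reached 1000 bases, and 24 reached 2000 bases. The summed width was 1346483 bases on Uextra and 288302 bases on U, against 8867421 bases on the arms. Uextra thus held 22.6% of the peaks of the list but 12.4% of its summed width, and U held 3.23% of the peaks and 2.66% of the width.

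The narrow end of the range was filled less densely on unplaced sequence. The narrowest width in the list, 200 bases, was found in 15 Uextra peaks, or 0.595% (0.333 to 0.979), and in 4 U peaks, or 1.11% (0.303 to 2.81), against 133 arm peaks, or 1.66% (1.39 to 1.96), with the interval of U overlapping that of the arms. The share in the whole list was 1.38%. Peaks under 300 bases made up 15.7% of Uextra (14.3 to 17.1) and 15.0% of U (11.4 to 19.1), against 20.3% of the arms (19.4 to 21.1) and 19% of the list. Widths of 350 to 699 bases were held by 1363 Uextra peaks, or 54.04%, and by 165 U peaks, or 45.7%, against 2337 arm peaks, or 29.1%, and 35.5% of the list.

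**Figure D1:**
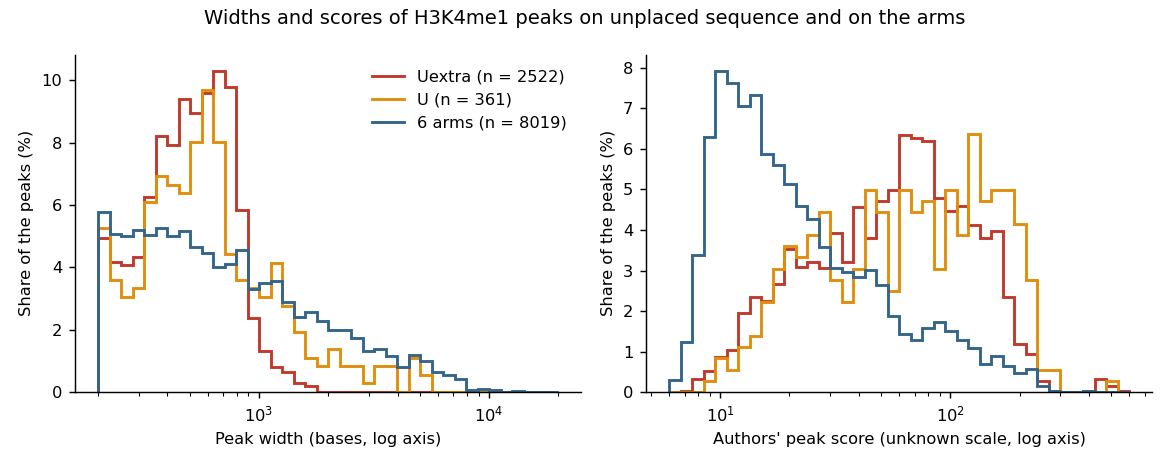
Share of the peaks (%) by width in bases (left) and by the authors' score (right), both on log axes, for Uextra (n = 2522), U (n = 361) and the 6 arms (n = 8019). Uextra widths end at 1774 bases, and the scores of Uextra and U centre on medians of 59.9 and 68.2, against 17.9 on the arms.

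The scores were shifted upward over nearly the whole range, and not at the top alone. The 5th percentile, the median and the 95th percentile of the score were 13.5, 59.9 and 171 on Uextra and 15.6, 68.2 and 205 on U, against 8.49, 17.9 and 116 on the arms. Scores under 20 made up 13.6% of Uextra (12.3 to 15.0) and 11.9% of U (8.76 to 15.7), against 55.3% of the arms (54.2 to 56.4) and 43.8% of the list. Scores of 100 or more were reached by 615 Uextra peaks, or 24.4% (22.7 to 26.1), and by 130 U peaks, or 36.0% (31.1 to 41.2), against 541 arm peaks, or 6.75% (6.21 to 7.32). In the whole list 12.1% of the peaks scored 100 or more. The Het scaffolds came level with Uextra in this share, at 66 of 271 peaks, or 24.4% (19.4 to 29.9). Their median score was lower, at 41.9, and 25.8% of their peaks scored under 20. The medians of U and Uextra lay close together, with exact 95% intervals of 60.6 to 79.6 on U and 57.4 to 62.3 on Uextra.

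A narrow peak with a high score was common on the unplaced sequence. Peaks under 1000 bases that scored 100 or more made up 551 of 2522 on Uextra, or 21.8% (20.2 to 23.5), and 77 of 361 on U, or 21.3% (17.2 to 25.9). On the arms they were 87 of 8019, or 1.08% (0.870 to 1.34), and in the whole list 6.61%. The Het scaffolds lay between, with 23 of 271, or 8.49% (5.46 to 12.5). The high-scoring peaks of the arms were wide ones. Among the 500 highest-scoring peaks of the list, the 205 on Uextra had a median width of 777 bases and the 61 on U of 984 bases, against 4649 bases for the 201 on the arms.

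The very top of Uextra stood apart from the rest of that collection, as did the top scores of U and of the arms. In this group, chosen after the values were seen, 14 Uextra peaks, or 0.555% (0.304 to 0.930), scored between 389 and 563. No Uextra peak scored between 271 and 389. U held 1 such peak, or 0.277%, with a score of 477, above a next highest score of 281. The arms held 3 peaks in this range, or 0.0374%, with scores from 403 to 506, above a next highest score of 296. The Het scaffolds held none. A gap below the top scores was thus not particular to Uextra. The 14 Uextra peaks were 760 to 1761 bases wide, with a median of 906 bases. They lay at the wide end of the collection, all 14 above its upper quartile of 682 bases and 6 above its 95th percentile of 913 bases. They came from 8 of the 10 equal lengths into which Uextra was divided, with no more than 3 in any of them.

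The highest-scoring Uextra peak lay at Uextra:24193645-24194457, and was 813 bases wide, scoring 563. The next lay at Uextra:5148304-5149380, with 1077 bases and a score of 518. Those that followed lay at Uextra:23274416-23275285, with 870 bases and a score of 514, and at Uextra:19769943-19770851, with 909 bases and a score of 508. The fifth, at Uextra:2128108-2129868, had a score of 488 and, with 1761 bases, was also the widest but one of the collection. All 5 scored above every arm peak within 10% of their width, where the median arm score was between 22.3 and 36.7.

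On U the highest score was found at U:7870932-7872580, with 1649 bases and a score of 477. It was followed by U:1096623-1097586, with 964 bases and a score of 281, and by U:2644198-2645522, with 1325 bases and a score of 280.4. The fourth and the fifth, at U:8293875-8294858 and U:8061285-8062224, were 984 and 940 bases wide and scored 244 and 243. These 5 peaks likewise scored above every arm peak of matched width. No gene or repeat is named for any of these positions, since neither the list nor the reference at hand annotates release 5 of U or Uextra.

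Wider peaks scored higher within each collection. Across the 2522 Uextra peaks, the Spearman correlation between width and score was 0.67, and Pearson's r between their log10 values was 0.67. Across the 361 U peaks the Spearman correlation was 0.70 and r was 0.65. On the arms the Spearman correlation was 0.81 and r was 0.80, and 0.73 over the 6667 arm peaks no wider than the widest Uextra peak (Spearman). All points come from the same list and libraries and may include copies of a repeat, so the coefficients carry no p-value.

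The relation was weaker among the wider peaks. Under 700 bases the Spearman correlation was 0.60 on Uextra (n = 1953) and 0.72 on U (n = 243), against 0.56 on the arms (n = 4488). From 700 bases up it was 0.36 on Uextra (n = 569) and 0.25 on U (n = 118). The widths covered differ between the collections, and a wider range alone raises a correlation, so the arms were limited to the widest peak of each collection. From 700 bases to the widest Uextra peak the arms gave 0.34 (n = 2179), close to Uextra, and from 700 bases to the widest U peak they gave 0.58 (n = 3372), above U. From 1000 bases up the correlation was -0.24 on Uextra (n = 82), against 0.20 on the arms up to the same width (n = 1197). It was 0.11 on U (n = 74), against 0.55 on the arms up to the width of the widest U peak (n = 2390). The limits were set after the values were seen.

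**Figure D2:**
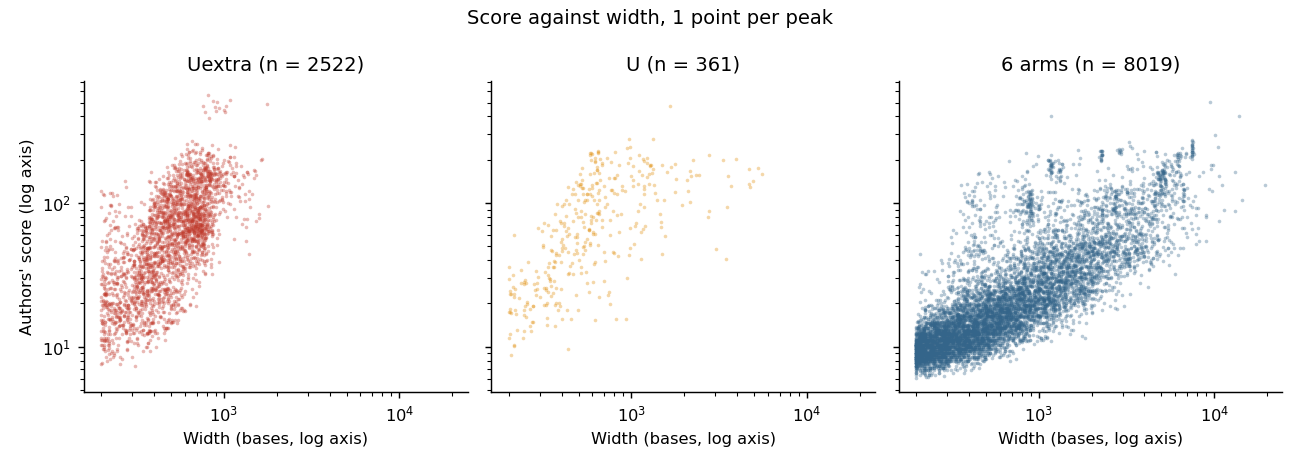
Authors' score against peak width in bases, both on log axes, with 1 point per peak, for Uextra (n = 2522), U (n = 361) and the 6 arms (n = 8019). The Uextra points form a steep cloud that ends at 1774 bases, with 14 points above a score of 300 set apart from it.

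Scores were higher on the unplaced collections in each class of width that they fill. Between 200 and 249 bases the median score was 20.6 on Uextra (n = 237) and 20.5 on U (n = 34), against 9.69 on the arms (n = 969). Between 500 and 699 bases it was 75.4 on Uextra (n = 703) and 101 on U (n = 91), against 16.8 on the arms (n = 1047). Between 1000 and 1499 bases it was 139 on Uextra (n = 73) and 134 on U (n = 41), against 29.2 on the arms (n = 908). The lower quartile on Uextra and on U lay above the upper quartile of the arms in each of the 7 classes under 3000 bases that both collections fill. From 3000 bases up, where Uextra has no peak, the 13 U peaks had a median score of 141 with quartiles of 130 and 172, and the 646 arm peaks had a median of 90.03 with quartiles of 55.5 and 136, so these ranges overlapped.

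**Figure D3:**
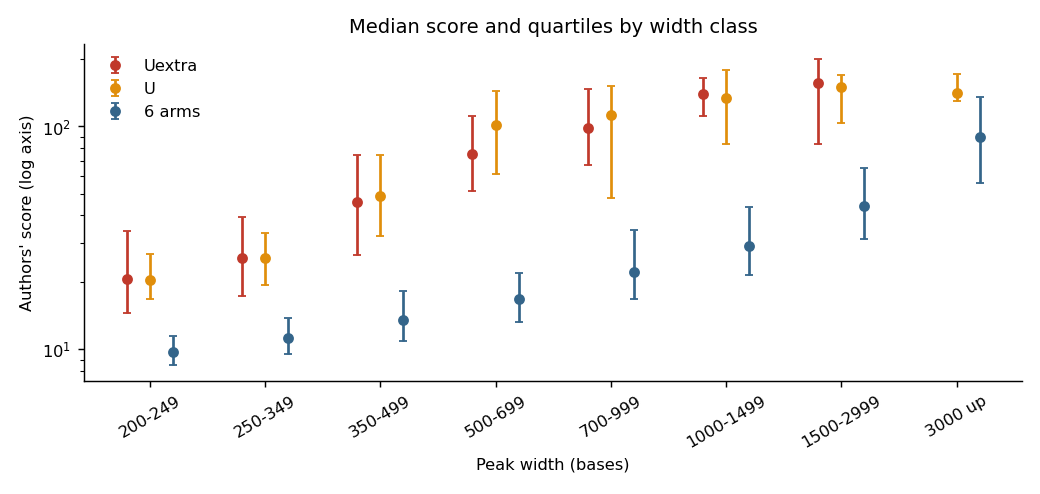
Median score (points) and quartiles (bars) on a log axis by class of peak width in bases, for Uextra, U and the 6 arms. The medians of Uextra and U lie above those of the arms in each class they fill, for example 75.4 on Uextra and 101 on U against 16.8 on the arms at 500 to 699 bases.

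To place each unplaced peak among arm peaks of like width, it was given the percentage of arm peaks within 10% of its width that scored lower. Every unplaced peak had enough arm peaks to be ranked, between 322 and 865 of them for Uextra and between 111 and 865 for U. The median rank was 96.8 on Uextra (exact 95% interval 96.6 to 96.9) and 96.7 on U (96.1 to 97.5). Arm peaks ranked the same way, each against the others, had a median of 50.16 by construction.

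Nearly all members scored above the middle of the matched arm peaks. The rank was above 50 for 2449 of 2522 Uextra peaks, or 97.1% (96.4 to 97.7), and for 353 of 361 U peaks, or 97.8% (95.7 to 99.0). The arms gave 50.1% and the whole list, members included, 63.2%. The rank was above 90 for 2050 Uextra peaks, or 81.3% (79.7 to 82.8), and for 293 U peaks, or 81.2% (76.7 to 85.1), against 9.74% of the arm peaks and 29.2% of the list. A score above every matched arm peak was found for 153 Uextra peaks, or 6.07% (5.17 to 7.07), and for 24 U peaks, or 6.65% (4.31 to 9.73). Among arm peaks this was 20 of 7998, or 0.250%, and in the list 1.81%.

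**Figure D4:**
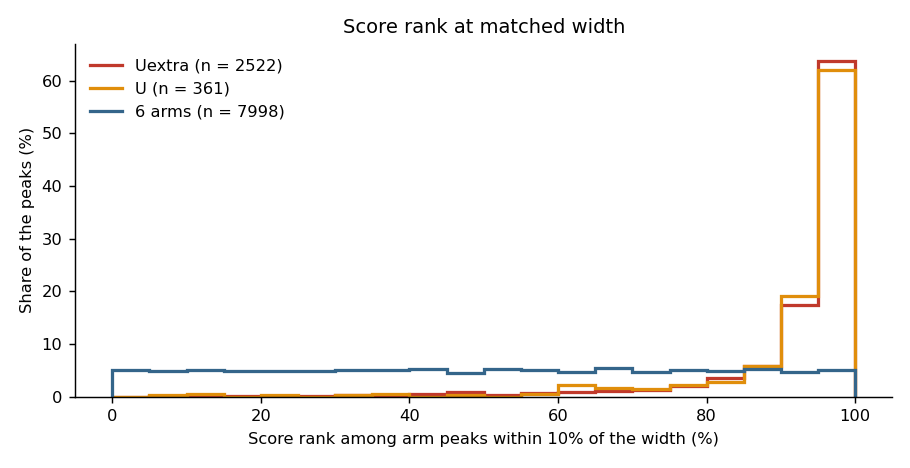
Share of the peaks (%) by score rank (%) among arm peaks within 10% of their width, for Uextra (n = 2522), U (n = 361) and the 6 arms ranked against each other (n = 7998). Ranks above 90 are held by 81.3% of the Uextra peaks and 81.2% of the U peaks, against 9.74% of the arm peaks, which are spread evenly.

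The ranks were high against each large arm taken alone. The median rank of Uextra peaks was 97.4 against 2L, 97.0 against 2R, 96.7 against 3L and 97.8 against 3R, and 93.8 against X. That of U peaks was 97.5 against 2L, 97.2 against 2R, 96.6 against 3L and 97.8 against 3R, and 94.4 against X. X was the large arm against which both collections ranked lowest.

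Heterochromatic sequence that is assigned to a chromosome came closer still. Against Het peaks within 10% of their width, Uextra peaks had a median rank of 71.4, with 73.6% of 1825 peaks above 50 (71.6 to 75.7). U peaks had a median rank of 75.8, with 82.5% of 217 peaks above 50 (76.8 to 87.3). The other members had fewer than 20 Het peaks of like width and were not ranked there. Set directly against each other, 42.7% of 2349 Uextra peaks ranked above the middle of the matched U peaks (40.7 to 44.7), with a median rank of 43.4, and 56.0% of 323 U peaks did so among matched Uextra peaks (50.4 to 61.5). At matched width, U peaks in this list thus scored somewhat higher than Uextra peaks, by less than either differed from the arms.

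The members that did not follow the pattern were few. On Uextra 73 peaks ranked below 50. They were 200 to 548 bases wide, with scores from 7.39 to 15.3, and none of the 569 Uextra peaks of 700 bases or more was among them. The lowest-scoring Uextra peaks lay at Uextra:2479165-2479476, with 312 bases, a score of 7.39 and a rank of 2.02, and at Uextra:24646598-24646853, with 256 bases, a score of 7.60 and a rank of 6.07. On U 8 peaks ranked below 50, and unlike those of Uextra they reached widths up to 3473 bases. The lowest-scoring U peaks lay at U:927535-927741, with 207 bases, a score of 8.77 and a rank of 30.5, and at U:187477-187910, with 434 bases, a score of 9.66 and a rank of 10.9.

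Between 1000 and 2999 bases, where both collections have peaks, none of the 82 Uextra peaks and none of the 61 U peaks ranked below 50, against 945 of 1903 arm peaks. The arm count is near the middle by construction, since arm peaks were ranked against each other. The widest peak of Uextra lay at Uextra:533420-535193, with 1774 bases, a score of 95.2 and a rank of 93.9. After Uextra:2128108-2129868, named above, came Uextra:13354241-13355897 with 1657 bases and a score of 201, Uextra:5906467-5908085 with 1619 bases and a score of 200.2, and Uextra:8815890-8817479 with 1590 bases and a score of 78.7. These 3 ranked at 99.4, 99.4 and 92.9. On U the widest peak lay at U:1542906-1548433, with 5528 bases, a score of 160.0 and a rank of 71.2. It was followed by U:977388-982654 with 5267 bases, a score of 175 and a rank of 90.6, and by U:1293314-1298233 with 4920 bases, a score of 141 and a rank of 64.3. The fourth and the fifth, U:276277-281025 and U:5898492-5903179, were 4749 and 4688 bases wide, scored 130 and 135 and ranked at 63.9 and 68.8. Over all 13 U peaks of 3000 bases or more, a width reached by 3.601% of U and 6.22% of the list, the median rank was 79.5 and 2 ranked below 50. The first peak of U, U:1-3340, began at the first base of the collection, so it could extend no further on that side.

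Recurring widths were looked for next, since copies of one element can give peaks of one width. On Uextra the 2522 peaks took 781 distinct widths, and 1211 of them, or 48.0%, had a width shared by at least 5 peaks. All Uextra widths lay within 1575 bases. The arms, with 2496 distinct widths among 8019 peaks, had 59.3% of their peaks at widths shared that often. A larger number of peaks alone raises this share, so it does not compare recurrence on Uextra with that on the arms. Because widths coincide wherever they are crowded, counts at single widths were divided by the mean count of the 20 widths on either side. The most frequent width was 200 bases with 15 peaks, followed by 471 and 481 bases with 12 peaks each.

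Among widths of 250 bases or more shared by at least 4 Uextra peaks, the ratio was highest at 481 bases, where 12 Uextra peaks stood against 4.00 per neighbouring width, a ratio of 3.00. It was 2.93 at 661 bases, with 9 peaks, and 2.86 at 787 bases, with 7 peaks. By the same rule, up to the widest Uextra peak, the arms reached 6.67 at 1561 bases, with 5 peaks against 0.75 per neighbouring width. Since at least 4 peaks were required, sparsely filled widths admit only high ratios. These ratios therefore do not compare Uextra with the arms. The 12 peaks of 481 bases scored from 15.3 to 149, with a median of 41.7. Their highest-scoring members lay at Uextra:26504551-26505031, with a score of 149, and at Uextra:26415995-26416475, with a score of 108. Then came Uextra:16123647-16124127 with a score of 100.5, Uextra:1624975-1625455 with 58.1 and Uextra:23547620-23548100 with 48.7. The other 7 scored between 15.3 and 43.5.

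On U the 361 peaks took 302 distinct widths, and 24 peaks, or 6.65%, had a width shared by at least 3. Among them, 4 were 200 bases wide and 4 were 214 bases wide. The arms were not counted at this cut. A width shared with at least 1 other peak was held by 29.9% of U peaks, against 84.7% of the 8019 arm peaks. The larger number of arm peaks alone raises that share. Outside the narrowest peaks, the width shared most often was 605 bases, with 4 peaks against 0.450 per neighbouring width. Those 4 peaks lay at U:8319066-8319670, U:3899558-3900162, U:8446879-8447483 and U:5534796-5535400, with scores of 79.7, 63.1, 61.1 and 28.0. The arms also held 4 peaks of 605 bases.

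Each collection was also searched in windows of 21 bases, limited to peaks that scored 50 or more and chosen after the values were seen. The count in each window was set against the 100 widths on either side. The count expected from them was 1.68 in the highest window of U and 3.36 in that of Uextra. In the next window it was 5.46 on U and 45.5 on Uextra. Windows with fewer than 6 peaks were not listed, so a small expected count admits only high ratios. The ratios therefore do not compare collections of different size. On Uextra (n = 1448) the highest ratio was 2.08, for 7 peaks of 1134 to 1154 bases. Every other window of at least 6 peaks, taken more than 100 bases apart, gave 1.496 or less. On U (n = 219) the highest was 4.17, for 7 peaks of 1162 to 1182 bases with scores from 65.9 to 203, and the next was 3.11, for 17 peaks of 637 to 657 bases with scores from 50.7 to 231. In the window of 1162 to 1182 bases Uextra had 4 peaks and the arms had 20. In the window of 637 to 657 bases Uextra had 52 peaks and the arms had 2. The highest ratio on the arms (n = 1341) was 11.3, for 13 peaks of 7473 to 7493 bases, a width that no member reached, and 4 of the 6 highest arm windows, from 2272 bases up, held no peak of Uextra or U, while the one at 4740 to 4760 bases held 1 of U.

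Pairs alike in both width and score were scarce. A second peak of the same collection with the same width and a score within 1% was found for 70 Uextra peaks, or 2.78%, and for 4 U peaks, or 1.11%, against 1067 arm peaks, or 13.3%. Arm scores lie close together at the low end, where 114 arm peaks carry the single value 9.66, so the count was repeated for scores of 50 or more. There it was 39 of 1448 on Uextra, or 2.69%, and 0 of 219 on U, against 8 of 1341 on the arms, or 0.597%. Equal widths are also more frequent where widths are crowded. Over all scores, widths lay within 1575 bases on Uextra, 5329 on U and 19269 on the arms. The part of this in the counts was not tested. Identity in both width and score was found for 4 Uextra peaks, or 0.159%, and for 0 U peaks, against 543 arm peaks, or 6.77%. Those of Uextra were Uextra:12890321-12890595 and Uextra:13720245-13720519, with 275 bases and a score of 12.5, and Uextra:10812369-10813098 and Uextra:12320846-12321575, with 730 bases and a score of 68.2. These 4 peaks were chosen after their values were seen.

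Peak width changed along Uextra, taken in the order of the file. With the collection divided into 10 equal lengths from its first to its last peak, the 95th percentile of width was lower in each length than in the one before, 1278 bases in the first (n = 168), 831 bases in the sixth (n = 281) and 651 bases in the last (n = 421). The median stayed between 531 and 569 bases over the first 7 lengths and was 376 bases in the last (exact 95% interval 359 to 391). Peaks under 300 bases made up 32.5% of the last length and between 9.42% and 16.1% of the others. The last length also held the most peaks, 421, against 168 to 316 in the others. What the order of the scaffolds follows is not given in the sources used here, and these stretches say nothing of distances in the genome.

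The median rank at matched width lay between 95.8 and 98.0 in each of the 10 lengths of Uextra, close to its ceiling of 100, where changes of score move it little. It was 98.0 in the last length, where the peaks were narrowest and the median score was lowest, at 48.7. Over the whole collection, the Spearman correlation between order and width was -0.27, between order and score -0.13, and between order and matched rank 0.07 (n = 2522, description only). On U the lengths held between 9 and 100 peaks, and the last held the most. The U peaks of 3000 bases or more came early, with 10 of 13 in the first 3 lengths. The Spearman correlation between order and width was -0.07 on U, between order and score 0.14, and between order and matched rank 0.22 (n = 361). The median rank on U was between 93.8 and 98.1 in each length.

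**Figure D5:**
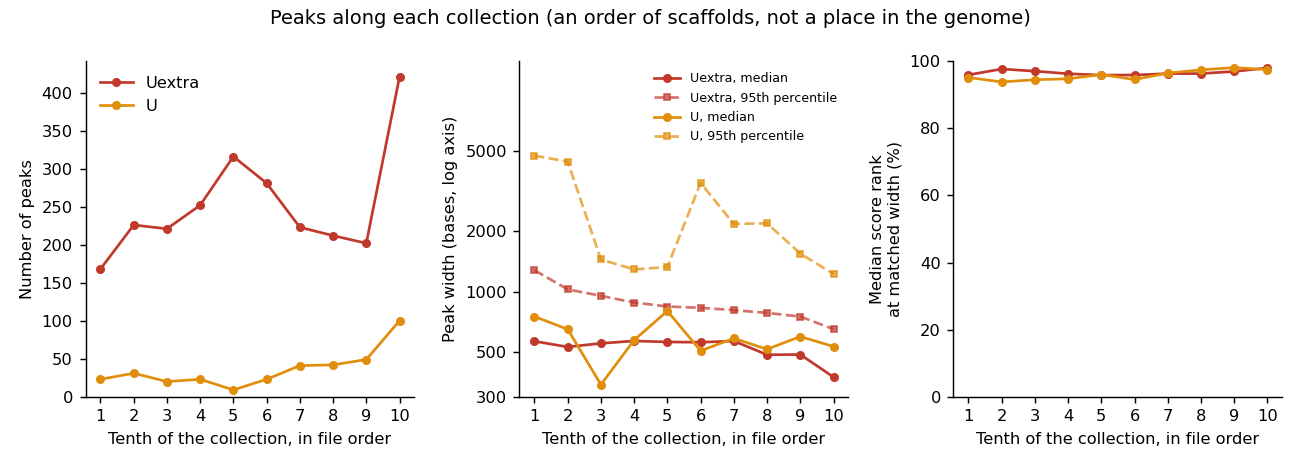
Number of peaks (left), peak width in bases on a log axis (middle, median as solid lines and 95th percentile as dashed lines) and median score rank (%) among arm peaks of matched width (right), in 10 equal lengths of Uextra and of U in file order. On Uextra the 95th percentile of width is 1278 bases in the first length and 651 bases in the last. The median rank, which cannot exceed 100, lies between 95.8 and 98.0.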

How the data were processed

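The authors deposited 1 peak list for the series. Per the file headers its coordinates are on FlyBase release 5, and its source column names MACS, which weighs ChIP reads against local background reads. Named in the submitters' processing notes are CASAVA (1.7.0.2 and 1.7.0.3), BWA, MACS2 and BDGP5, with no roles. The score that the authors deposited has a scale that is not given in the sources used here. Scores were therefore mostly compared by rank or quantile within the list, and once as log10 values. The pairs of nearly equal score and the gap below the top scores used the values as deposited, so both depend on that scale. Other values deposited are start and end. The lowest start is 0, so starts were read as counting from 0, and positions are printed counting from 1. Width is end minus start.

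The measures were computed with pandas 2.3.3 and numpy 2.4.6 in Python 3.11.15, the intervals with scipy 1.17.1, and the figures drawn with matplotlib 3.10.9. A matched rank is the percentage of arm peaks within 10% of its width, as a ratio, that score lower, ties split evenly, for peaks with at least 20 such arm peaks; an arm peak was left out of its own set. Intervals are exact binomial ones at 95%, for medians by order statistics. The measures were tested on simulated data. Peaks named by position are, in each collection, the 5 highest-scoring, the 5 widest, the 2 lowest-scoring and up to 5 at the recurring width of 250 bases or more, shared by at least 4 peaks, that most exceeds its neighbours. Members, measures and lists were chosen with earlier results of these data known. The gene table at hand is on Release 6 and was not used, and no sequence of release 5 was read. Alternatives changed the width tolerance, reference arms, width and score minimums, score tolerance and number of lengths.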

Additional observations from a re-analysis of the deposited data

How the results depend on the processing

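Of 44 repeats under another setting, 22 stayed within the interval or tolerance of the first value and 22 did not. The shares ranked above the middle of matched peaks and the correlations have a direction, and none of these turned within the 44 repeats. The repeats did not include the cut at 1000 bases within Uextra, where the correlation given above was -0.24 (n = 82) against 0.67 over all widths. Counts of peaks, median widths and median scores have no direction, so they could not turn. The share of peaks ranked above the middle of matched peaks was 73.6% on Uextra and 82.5% on U with the Het scaffolds as the reference. On the list cut at its median score it was 88.6% on Uextra and 90.2% on U, a cut that narrows the scores left. On Uextra it was 97.7% for peaks of 300 bases or more and 92.7% against arm peaks of the 1 Mb nearest the centromere alone, a setting chosen after seeing the data that could rank 912 of its peaks. Peaks at shared widths numbered 2386 on Uextra and 177 on U with widths within 2 bases taken as equal, and 681 on Uextra on the cut list. The Spearman correlation between score and width was 0.56 on Uextra on the cut list and 0.58 on U from 300 bases up. On the arms it was 0.62 from 700 bases and 0.61 from 1000 bases up, with no upper limit of width, and 0.34 and 0.20 up to the widest Uextra peak. Peaks alike in width and score numbered 6 on Uextra and 0 on U within 0.1%, and 347 and 14 within 5%. With 20 equal lengths the median width of the last was 344 bases on Uextra. On the cut list the median width was 561.5 bases on Uextra and 605 on U, and the median score 70.3 and 83.95. Fewer peaks or wider tolerances are built into these settings; for the other shifts the cause was not tested. No paired analysis was possible because the list carries no value per library, so no replicate could be left out, and read depth was not analysed here.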

Other observations

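The arm peaks nearest the centromere were ranked in the same way, as a sequence that is placed but known to be rich in repeats. The 226 arm peaks within 1 Mb of the centromere-side end of the peaks on 2L, 2R, 3L, 3R and X had a median rank of 74.8 among the remaining arm peaks of matched width, and 67.3% of them ranked above 50 (exact 95% interval 60.7 to 73.3). The Het peaks had a median rank of 90.05 among arm peaks (86.1 to 92.2). The order of the medians was thus 96.8 on Uextra and 96.7 on U, 90.05 on the Het scaffolds and 74.8 on the proximal arms. The reference differed, since Uextra, U and Het peaks were ranked against all arm peaks, the proximal ones included. Against the arms without the proximal 1 Mb the medians were 97.09 on Uextra and 97.04 on U, and Het peaks were not ranked that way. The 26 peaks of chromosome 4 had a median rank of 74.9, with an interval from 45.95 to 92.2.

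Score values repeated less on the unplaced sequence. Uextra held 1772 distinct scores and 529 of its peaks, or 20.98%, carried a score shared by at least 5 peaks of the collection. U held 329 distinct scores, none shared by more than 4 peaks. On the arms 4708 of 8019 peaks, or 58.7%, carried such a score. The number of peaks differs between these collections, which bears on how often a value can repeat. Low scores also differ in share: those under 20 made up 55.3% of the arms, 13.6% of Uextra and 11.9% of U. Arm scores lie close together there, with 114 arm peaks at the single value 9.66. The part of either was not tested.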
